A study of Homo sapiens with 6 samples.

Results

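Purine and pyrimidine nucleotide synthesis genes were examined in the established human colorectal cancer line DLD-1 after transfection with siRNA against lncSLCC1 or with control siRNA. The list holds 34 gene symbols out of 56638 in the deposited count tables, and it was drawn up by function: making phosphoribosyl pyrophosphate (PRPP), building the purine and pyrimidine rings, reducing ribonucleotides to deoxynucleotides, phosphorylating and cleaning the pools, and salvage. All 34 symbols were found, and 33 had enough reads to be tested. Total RNA was sequenced from 3 lncSLCC1 siRNA libraries and 3 control siRNA libraries of the same line, cultured and transfected alike. Neither the siRNA sequences, nor the time after transfection, nor whether the replicates were separate cultures is given in the sources used here, so the p-values cover the spread among these libraries only, part or all of which may be technical.

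Nucleotides are assembled on a ribose phosphate. PRPP synthetases activate it, a chain of enzymes builds the purine ring on it to reach inosine monophosphate (IMP), and a separate chain makes orotate and joins it to PRPP to reach uridine monophosphate. Ribonucleotide reductase then turns ribonucleotides into the deoxynucleotides that DNA replication consumes, and salvage enzymes recover free bases and nucleosides. Dividing tumour cells draw heavily on these routes, and several of the enzymes are drug targets, among them thymidylate synthase, IMP dehydrogenase and dihydroorotate dehydrogenase.

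The lncSLCC1 siRNA libraries had 14751147, 15262872 and 12572277 reads assigned to genes, and the control siRNA libraries had 14873343, 15568075 and 15479063. Values below are CPM, gene reads divided by a library size that was scaled with TMM, a method that sets most genes equal between libraries. The targeted RNA, listed as RP11-400N13.2, stood at 1.66 to 2.62 CPM after lncSLCC1 siRNA and at 5.197 to 9.31 CPM after control siRNA (log2 fold change -1.88, SE 0.264, edgeR adjusted p = 0.0027). All 8 epithelial and colorectal markers were expressed, and summed to 5898 to 6226 CPM after lncSLCC1 siRNA and 5794 to 7219 CPM after control siRNA. VIL1, which encodes the microvillus protein villin, was the 1 marker of the 8 that passed the test (log2 fold change 0.87, edgeR adjusted p = 0.00618). The 8 markers of blood, endothelial, stromal and liver cells summed to 1.596 to 2.19 CPM after lncSLCC1 siRNA and 1.69 to 2.54 CPM after control siRNA, with PECAM1 and DCN at 0 in all 6 libraries.

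Control siRNA replicate 1 stood apart from the other two controls. The chi-square statistic per gene between pairs of lncSLCC1 siRNA libraries was 1.87 to 1.99, whereas it was 17.7 between control replicates 1 and 2, 31.2 between 1 and 3, and 5.97 between 2 and 3. Among the nucleotide genes this library was low for RRM2B, CMPK1 and ADSS, with log2 ratios to the mean of the other controls of -1.11, -1.04 and -0.68. It was high for DCTPP1, NME1 and APRT, with log2 ratios of 0.48, 0.43 and 0.41. Across the 33 tested genes this deviation ran with the GC content of the transcript (Pearson r = 0.713, as a description; 0.596 across 13619 tested genes of all kinds). For the log2 fold change itself, r with GC content was -0.29 across the 33 genes and -0.151 across the 13619. The part of GC content in the results was not tested. Some results below are also given without control replicate 1, but not all of those in which it was the highest or lowest library.

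Of the 33 tested genes, 10 were lower after lncSLCC1 siRNA at an adjusted p under 0.05 by edgeR's quasi-likelihood test, 0 were higher, and 23 did not pass the test. That is 30.3% lower, against 7.39% of the 15242 genes tested; 6.46% of all genes were higher. The 10 were PRPS2, DUT, PAICS, IMPDH1, DCTPP1, NME1, TK1, PPAT, UCK2 and CTPS1. At an unadjusted p under 0.05, 18 nucleotide genes lay lower and 2 higher, against 16.3% and 15.3% of all genes. DESeq2 called 14 lower and 1 higher (8.12% and 6.4% of all genes), and limma-voom called 10 lower and 0 higher (6.87% and 6.34% of all genes). The median log2 fold change was -0.20 over the 33 genes and 0.0072 over all genes tested. The groups did not overlap for 19 genes that were lower and 2 that were higher, against 19.6% and 19.4% of all genes. In bulk RNA, fewer cells that use a gene and less of its RNA per cell cannot be told apart. Leaving out control replicate 1 gave 19 lower, among them all 10 above, and 2 higher (15.5% of all genes were then lower). Leaving out control replicate 3 gave 14 lower and 1 higher (13.4%). Leaving out control replicate 2 gave 4 lower (2.26%), as did leaving out lncSLCC1 siRNA replicate 1 (2.04%), 2 (1.6%) or 3 (1.56%), in each case PRPS2, DUT, PAICS and IMPDH1 with 0 higher. Correcting for GC content and transcript length gave 21 lower and 1 higher (15.8%).

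**Figure D1:**
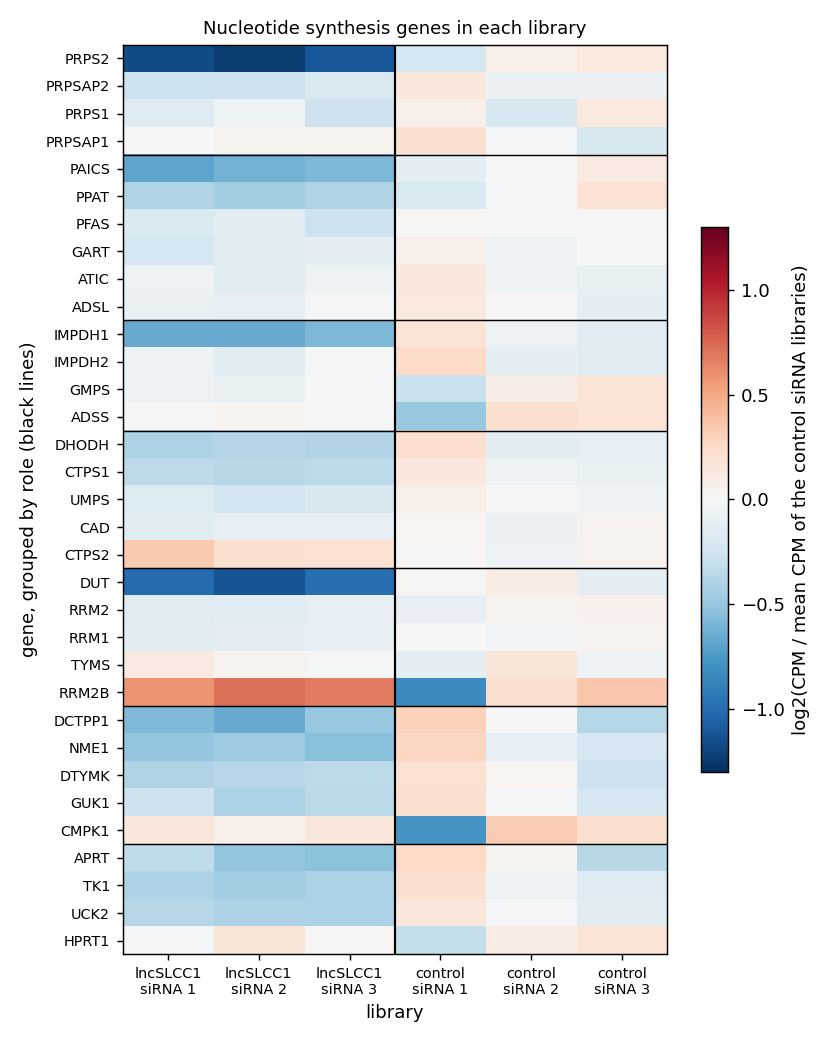
Level of each of the 33 tested genes in each library, as the log2 of its CPM over the mean CPM of the 3 control siRNA libraries, with genes in rows grouped by role and libraries in columns. PRPS2 and DUT were the darkest blue rows in all 3 lncSLCC1 siRNA libraries, and control siRNA replicate 1 was the lowest library for RRM2B, CMPK1 and ADSS.

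**Figure D2:**
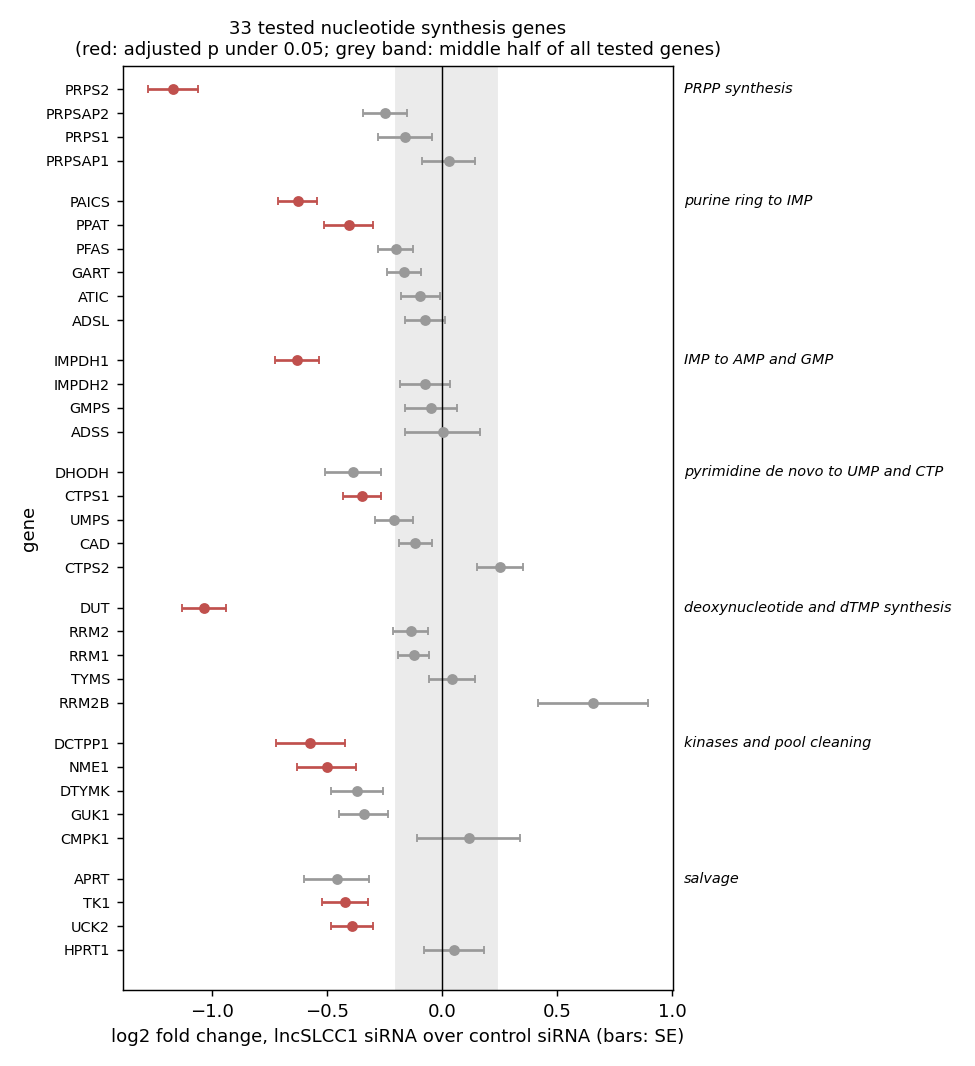
Log2 fold change of lncSLCC1 siRNA over control siRNA (x axis) with its standard error as a bar for each of the 33 genes, grouped by role; red points passed an adjusted p under 0.05 by edgeR. All 10 red points lie left of 0, and RRM2B, the point farthest right at 0.66, has a standard error of 0.238 and did not pass.

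PRPP synthesis held the largest change of the list. PRPS2, a PRPP synthetase gene, stood at 35.1, 33.4 and 36.5 CPM after lncSLCC1 siRNA, against 67.3, 82.5 and 86.1 CPM after control siRNA. Every lncSLCC1 siRNA library lay below every control, and control replicate 1 was the lowest of the controls. The mean was 35 ± 1.57 CPM after lncSLCC1 siRNA and 78.6 ± 9.99 CPM after control siRNA (SD, n = 3 each), which is 44.5% of the control level (log2 fold change -1.17, SE 0.110, edgeR adjusted p = 0.000357). It ranked 42 from the lowest fold change among 15242 genes. PRPS1, which encodes the other widely expressed synthetase, stood at 28.96, 31.2 and 26.9 CPM after lncSLCC1 siRNA and 33.96, 28.1 and 35.4 CPM after control siRNA. These groups overlapped (log2 fold change -0.16, SE 0.118, edgeR adjusted p = 0.381).

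The PRPP synthetase-associated proteins, which bind the synthetases and hold down their activity, did not pass the test. PRPSAP1 stood at 33.2, 34.4 and 34.2 CPM after lncSLCC1 siRNA, and at 38.3, 32.6 and 28.9 CPM after control siRNA (log2 fold change 0.03, edgeR adjusted p = 0.893, and -0.07 without control replicate 3). PRPSAP2 stood at 40.9, 41.1 and 43.2 CPM after lncSLCC1 siRNA, and at 54.5, 46.9 and 47.1 CPM after control siRNA. Its groups did not overlap, but the difference of -0.25 on the log2 scale (SE 0.0961) did not pass (edgeR adjusted p = 0.112).

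The bases before the PRPS2 start are shown because PRPS2 had the largest change, with a match to TTTCCCGC, a form of the E2F site of S phase promoters, in capitals. They are the 250 bases chrX:12791162-12791411 on the plus strand of GRCh38.p14, from RefSeq.
PRPS2: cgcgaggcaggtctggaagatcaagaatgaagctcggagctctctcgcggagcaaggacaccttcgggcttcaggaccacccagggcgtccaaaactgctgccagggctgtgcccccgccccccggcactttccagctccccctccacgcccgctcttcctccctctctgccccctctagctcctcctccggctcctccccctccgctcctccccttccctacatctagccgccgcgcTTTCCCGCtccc

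In the chain that builds the purine ring, PAICS and PPAT were lower and the other 4 genes did not pass. PAICS encodes the enzyme that carboxylates the ring precursor and adds aspartate to it. It stood at 289.0, 304.5 and 311.1 CPM after lncSLCC1 siRNA and at 426.1, 466.2 and 505.5 CPM after control siRNA. Each lncSLCC1 siRNA library was well below the lowest control, replicate 1. Its mean was 301.5 ± 11.3 CPM after lncSLCC1 siRNA and 465.9 ± 39.7 CPM after control siRNA (SD, n = 3 each; log2 fold change -0.63, SE 0.0833, edgeR adjusted p = 0.00203), or 64.7% of the control level. PPAT encodes the amidotransferase that commits PRPP to purines. It stood at 54.8, 52.8 and 54.7 CPM after lncSLCC1 siRNA, against 62.6, 70.9 and 81.4 CPM after control siRNA, and the groups did not overlap. The mean was 54.1 ± 1.12 CPM after lncSLCC1 siRNA and 71.6 ± 9.43 CPM after control siRNA (SD, n = 3 each; log2 fold change -0.41, SE 0.106, edgeR adjusted p = 0.034). The PPAT call did not hold with library totals in place of TMM (adjusted p = 0.0786), where 9 of the 33 genes and 5.34% of all genes were lower, without control replicate 2 (0.108), or after leaving out lncSLCC1 siRNA replicate 1, 2 or 3 (0.117, 0.15 and 0.126).

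PPAT and PAICS lie head to head on chromosome 4. On GRCh38 the RefSeq start of PPAT is at 56435615 on the minus strand. A RefSeq start of PAICS, at 56435752 on the plus strand, lies 137 bases away. An E-box, the word CACGTG bound by MYC with MAX, lies at chr4:56435792-56435797, which is 40 bases into the first exon of PAICS and 182 bases before the start of PPAT. PAICS has other RefSeq starts, whose windows lack the word. With the start named above, both genes share this copy. It is shown in capitals as read on the strand of PPAT, at chr4:56435783-56435806, with the other E-boxes found in the windows of 250 bases before to 50 bases after a start. DHODH has it at chr16:72008576-72008599 and ATIC at chr2:215312004-215312027 and chr2:215312079-215312102, all on the plus strand. NME1 has it at chr17:51153584-51153607 on the plus strand and DCTPP1 at chr16:30429795-30429818 on the minus strand.
PPAT: ggagatttcCACGTGcagcaaata
ATIC: ccggcgggcCACGTGataagcccg
ATIC, after the start: ctacctgcgCACGTGgtgccgccg
DHODH: gctactgcgCACGTGcacccaacc
NME1: gctgcgaacCACGTGggtcccggg
DCTPP1: gggttcctcCACGTGgtcgggaag

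The other ring-building genes did not pass the test. GART, whose product carries 3 activities of the chain, stood at 253.0, 268.4 and 270.7 CPM after lncSLCC1 siRNA and 310.9, 282.2 and 295.4 CPM after control siRNA (log2 fold change -0.17, edgeR adjusted p = 0.158). PFAS, which encodes an amidotransferase of the chain, stood at 125.9, 129.9 and 117.8 CPM after lncSLCC1 siRNA and 145.1, 143.2 and 141.6 CPM after control siRNA. Its log2 fold change was -0.20 (edgeR adjusted p = 0.1, and 0.0166 without control replicate 1). The groups of GART and PFAS did not overlap, whereas those of ADSL and ATIC did. ADSL, which encodes a lyase used here and on the way to AMP, averaged 123.9 ± 3.55 CPM after lncSLCC1 siRNA and 130.4 ± 11.6 CPM after control siRNA (edgeR adjusted p = 0.597). ATIC, which encodes the enzyme that closes the ring, averaged 215.8 ± 8.15 CPM after lncSLCC1 siRNA and 230.5 ± 20.7 CPM after control siRNA (SD, n = 3 each; edgeR adjusted p = 0.475).

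Of the genes that turn IMP into AMP and GMP, IMPDH1 was lower. It encodes an IMP dehydrogenase, the enzyme of the limiting step to guanine nucleotides. IMPDH1 stood at 127.7, 128.4 and 134.4 CPM after lncSLCC1 siRNA, against 228.4, 193.1 and 183.1 CPM after control siRNA, with no overlap. The mean was 130.2 ± 3.67 CPM after lncSLCC1 siRNA and 201.5 ± 23.8 CPM after control siRNA (SD, n = 3 each; log2 fold change -0.63, SE 0.0940, edgeR adjusted p = 0.0035), or 64.6% of the control level. IMPDH2, the isoenzyme gene usually dominant in proliferating cells, stood at 384.5, 363.4 and 395.1 CPM after lncSLCC1 siRNA, and at 476.4, 368.9 and 359.7 CPM after control siRNA. Its groups overlapped (log2 fold change -0.08, edgeR adjusted p = 0.667). The value was 0.06 without control replicate 1 and 0.04 with the GC content correction.

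GMPS, which encodes the enzyme that aminates xanthosine monophosphate to GMP, stood at 139.9, 137.9 and 147.0 CPM after lncSLCC1 siRNA and 119.7, 155.1 and 164.3 CPM after control siRNA. ADSS, which encodes the synthase that leads from IMP towards AMP, stood at 52.2, 53.6 and 51.9 CPM after lncSLCC1 siRNA and 37.4, 60.8 and 59.2 CPM after control siRNA. In both genes control replicate 1 lay below every lncSLCC1 siRNA library and the other controls above. The log2 fold changes were -0.05 for GMPS (edgeR adjusted p = 0.804) and 0.0018 for ADSS (0.996). Without control replicate 1 they were -0.18 for GMPS (adjusted p = 0.0255) and -0.19 for ADSS (0.0359).

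In pyrimidine synthesis CTPS1 was lower and the other 4 genes did not pass. CTPS1 encodes a CTP synthase, which aminates UTP. It stood at 128.3, 126.8 and 128.1 CPM after lncSLCC1 siRNA, and at 178.8, 156.4 and 152.8 CPM after control siRNA, so the lncSLCC1 siRNA libraries lay close together and below all controls. The mean was 127.7 ± 0.854 CPM after lncSLCC1 siRNA and 162.7 ± 14.1 CPM after control siRNA (SD, n = 3 each; log2 fold change -0.35, SE 0.0834, edgeR adjusted p = 0.0247). The CTPS1 call did not hold without control replicate 2 (0.0732) or after leaving out lncSLCC1 siRNA replicate 1, 2 or 3 (adjusted p of 0.108, 0.126 and 0.115). CTPS2, its isoenzyme gene, stood at 31.2, 28.5 and 28.3 CPM after lncSLCC1 siRNA, above the 24.9, 23.6 and 25.4 CPM after control siRNA. The difference of 0.25 on the log2 scale (SE 0.0984) did not pass (edgeR adjusted p = 0.113), and passed when control replicate 1 was left out (0.0314).

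CAD, DHODH and UMPS make uridine monophosphate. CAD, whose long product carries the opening steps of the chain, stood at 278.7, 284.2 and 285.4 CPM after lncSLCC1 siRNA and 312.5, 290.8 and 316.8 CPM after control siRNA (log2 fold change -0.12, edgeR adjusted p = 0.287). DHODH, which encodes the mitochondrial dehydrogenase that makes orotate, stood at 20.5, 20.6 and 20.6 CPM after lncSLCC1 siRNA, and at 31.4, 24.3 and 25.1 CPM after control siRNA. Its log2 fold change of -0.39 (SE 0.121) lay just outside the threshold (edgeR adjusted p = 0.0585), and it passed without control replicate 1 (0.0285) and without control replicate 3 (0.034). UMPS, which encodes the enzyme that joins orotate to PRPP, stood at 57.9, 55.7 and 56.7 CPM after lncSLCC1 siRNA and 68.8, 65.3 and 63.1 CPM after control siRNA (log2 fold change -0.21, edgeR adjusted p = 0.114, and 0.0476 without control replicate 1). In all 3 genes every lncSLCC1 siRNA library lay below every control.

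Among the deoxynucleotide genes DUT was lower. Its product, dUTPase, breaks down dUTP and so keeps uracil out of DNA while supplying the precursor of dTMP. DUT stood at 34.5, 31.7 and 35.1 CPM after lncSLCC1 siRNA, against 70.1, 73.7 and 63.6 CPM after control siRNA. The highest lncSLCC1 siRNA library was far below the lowest control. The mean was 33.8 ± 1.78 CPM after lncSLCC1 siRNA and 69.1 ± 5.09 CPM after control siRNA (SD, n = 3 each), or 48.8% of the control level (log2 fold change -1.03, SE 0.0955, edgeR adjusted p = 0.00032). It ranked 77 from the lowest fold change of all genes. In GENCODE 29, 14.5% of its exon bases lie opposite another annotated gene, and reads of the opposite strands cannot be told apart without a stated strand setting.

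The bases before the DUT start that holds the E2F words are shown because DUT followed PRPS2 in size of change. They are chr15:48331947-48332196 on the plus strand of GRCh38.p14, from RefSeq, with GCGGGAAA, the reverse complement of TTTCCCGC, and TTTGGCGC in capitals. DUT has other RefSeq starts, whose windows hold neither word, and the gene counts do not tell its transcripts apart.
DUT: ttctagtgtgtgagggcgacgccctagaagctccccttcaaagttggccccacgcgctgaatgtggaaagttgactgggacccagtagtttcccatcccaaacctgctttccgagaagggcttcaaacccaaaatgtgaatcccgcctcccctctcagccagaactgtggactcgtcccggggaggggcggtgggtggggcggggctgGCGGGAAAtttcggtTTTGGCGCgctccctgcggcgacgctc

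The other deoxynucleotide genes did not pass the test. TYMS, which encodes thymidylate synthase, averaged 53.2 ± 2.62 CPM after lncSLCC1 siRNA and 51.6 ± 5.24 CPM after control siRNA (SD, n = 3 each; log2 fold change 0.04, edgeR adjusted p = 0.794). Of its exon bases, 46.6% lie opposite other annotated genes. The largest overlap is with ENOSF1, whose own log2 fold change was 0.11 (edgeR adjusted p = 0.507). TYMS carries a TTTCCCGC match too, in reverse complement, at chr18:657606-657629 on the plus strand. For comparison, its stretch is set beside those of PRPS2 at chrX:12791392-12791415 and DUT at chr15:48332147-48332170, with the word in capitals.
TYMS: ggacggccGCGGGAAAaggcgcgc
PRPS2: cgccgcgcTTTCCCGCtcccgcag
DUT: cggggctgGCGGGAAAtttcggtt

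Ribonucleotide reductase pairs a large subunit from RRM1 with a small subunit from RRM2 or from RRM2B, the p53-inducible form. RRM1 stood at 307.9, 313.3 and 316.5 CPM after lncSLCC1 siRNA, below the 340.1, 332.2 and 349.6 CPM after control siRNA (log2 fold change -0.12, edgeR adjusted p = 0.243). RRM2 stood at 429.1, 429.7 and 444.2 CPM after lncSLCC1 siRNA and 443.7, 493.3 and 494.9 CPM after control siRNA, with a small overlap (log2 fold change -0.14, edgeR adjusted p = 0.242, and 0.00645 without control replicate 1). RRM2B stood at 31.0, 33.97 and 33.2 CPM after lncSLCC1 siRNA, above the 11.7, 23.95 and 26.6 CPM after control siRNA. Control replicate 1 was far below the other controls. The RRM2B difference of 0.66 on the log2 scale (SE 0.238) did not pass (edgeR adjusted p = 0.0929). Without control replicate 1 it was smaller and passed, at 0.37 (SE 0.0875, adjusted p = 0.00248), and without control replicate 3 it was 0.87 (adjusted p = 0.0245).

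NME1 and DCTPP1 were lower among the kinases and pool-cleaning enzymes. NME1 encodes a nucleoside diphosphate kinase, which makes triphosphates. It stood at 39.0, 39.9 and 38.0 CPM after lncSLCC1 siRNA, against 66.6, 51.3 and 47.4 CPM after control siRNA (mean 38.9 ± 0.951 CPM after lncSLCC1 siRNA and 55.1 ± 10.2 CPM after control siRNA, SD, n = 3 each). Its groups did not overlap, and the spread lay among the controls. The log2 fold change was -0.50 (SE 0.128, edgeR adjusted p = 0.0315), and the NME1 call did not hold without control replicate 2 (0.0809) or after leaving out lncSLCC1 siRNA replicate 1, 2 or 3 (0.111, 0.115 and 0.129). NME2, the neighbouring kinase gene, was listed at 0 reads in all 6 libraries and was not tested. The symbol NME1-NME2, a readthrough transcript of both genes, stood at 4.45, 3.07 and 3.43 CPM after lncSLCC1 siRNA and 7.26, 5.14 and 6.05 CPM after control siRNA (log2 fold change -0.75, edgeR adjusted p = 0.0344). In GENCODE 29, 22.9% of the NME2 exon bases and 18.6% of those of NME1 are shared with other genes on the same strand. The readthrough gene has the largest overlap with both, so reads of the 3 symbols cannot be told apart fully. Whether NME2 reads were counted there or set aside as ambiguous cannot be told, so its 0 need not be its RNA level.

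DCTPP1 encodes a pyrophosphatase that removes dCTP and its altered forms. It stood at 52.2, 49.2 and 54.9 CPM after lncSLCC1 siRNA, below the 95.4, 77.1 and 59.9 CPM after control siRNA. The controls were spread widely, and the lowest of them, replicate 3, was only just above the lncSLCC1 siRNA libraries. The mean was 52.1 ± 2.88 CPM after lncSLCC1 siRNA and 77.4 ± 17.8 CPM after control siRNA (SD, n = 3 each; log2 fold change -0.57, SE 0.15, edgeR adjusted p = 0.0343). The DCTPP1 call did not hold without control replicate 2 (0.114) or after leaving out lncSLCC1 siRNA replicate 1, 2 or 3 (adjusted p of 0.112, 0.145 and 0.104). Of its exon bases, 42.1% lie opposite other annotated genes. The largest overlap is with ZNF771, a zinc-finger gene with a log2 fold change of -0.26 (edgeR adjusted p = 0.275).

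Of the monophosphate kinases, GUK1 for guanylate and DTYMK for thymidylate lay below the controls without passing. GUK1 stood at 199.0, 180.5 and 188.4 CPM after lncSLCC1 siRNA and 275.9, 236.8 and 206.2 CPM after control siRNA (log2 fold change -0.34, edgeR adjusted p = 0.0588). DTYMK stood at 81.6, 82.5 and 84.2 CPM after lncSLCC1 siRNA and 123.0, 108.9 and 88.9 CPM after control siRNA (log2 fold change -0.37, edgeR adjusted p = 0.0569). Both passed without control replicate 1 (GUK1 0.00763, DTYMK 0.00845) and without control replicate 3 (GUK1 0.00834, DTYMK 0.005). CMPK1, which encodes the kinase of UMP and CMP, stood at 92.2, 87.0 and 91.2 CPM after lncSLCC1 siRNA and 48.8, 104.6 and 96.0 CPM after control siRNA. Its groups overlapped (log2 fold change 0.12, SE 0.223, edgeR adjusted p = 0.756), and without control replicate 1 the sign turned to -0.16 (adjusted p = 0.0636).

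In salvage the nucleoside kinases TK1 and UCK2 were lower, and the base phosphoribosyltransferases did not pass. TK1, which encodes the cytosolic thymidine kinase of S phase, stood at 220.5, 214.6 and 218.9 CPM after lncSLCC1 siRNA and 338.1, 278.7 and 259.1 CPM after control siRNA. UCK2, which encodes a uridine and cytidine kinase, stood at 74.0, 72.8 and 72.2 CPM after lncSLCC1 siRNA, against 106.2, 94.0 and 87.5 CPM after control siRNA. In neither gene did the groups overlap, and in both control replicate 1 was the highest library. TK1 averaged 218.0 ± 3.03 CPM after lncSLCC1 siRNA and 292.0 ± 41.1 CPM after control siRNA (SD, n = 3 each; log2 fold change -0.42, SE 0.1, edgeR adjusted p = 0.024). UCK2 averaged 73.0 ± 0.904 CPM after lncSLCC1 siRNA and 95.9 ± 9.52 CPM after control siRNA (log2 fold change -0.39, SE 0.0915, edgeR adjusted p = 0.0221). Without control replicate 2 the adjusted p was 0.0736 for TK1 and 0.079 for UCK2. Without lncSLCC1 siRNA replicate 1, 2 or 3 it was 0.0951, 0.117 and 0.107 for TK1 and 0.0951, 0.112 and 0.11 for UCK2.

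APRT and HPRT1 encode the enzymes that join free purine bases to PRPP. APRT stood at 132.1, 116.2 and 114.9 CPM after lncSLCC1 siRNA and 199.1, 170.2 and 129.2 CPM after control siRNA, with an overlap at control replicate 3. Its log2 fold change of -0.46 (SE 0.141) lay just outside the threshold (edgeR adjusted p = 0.0571), and it passed without control replicate 1 (0.0071) and without control replicate 3 (0.00321). HPRT1 stood at 42.5, 48.2 and 43.6 CPM after lncSLCC1 siRNA, within the 34.7, 46.0 and 48.7 CPM after control siRNA (log2 fold change 0.05, edgeR adjusted p = 0.817, and -0.08 without control replicate 1).

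**Figure D3:**
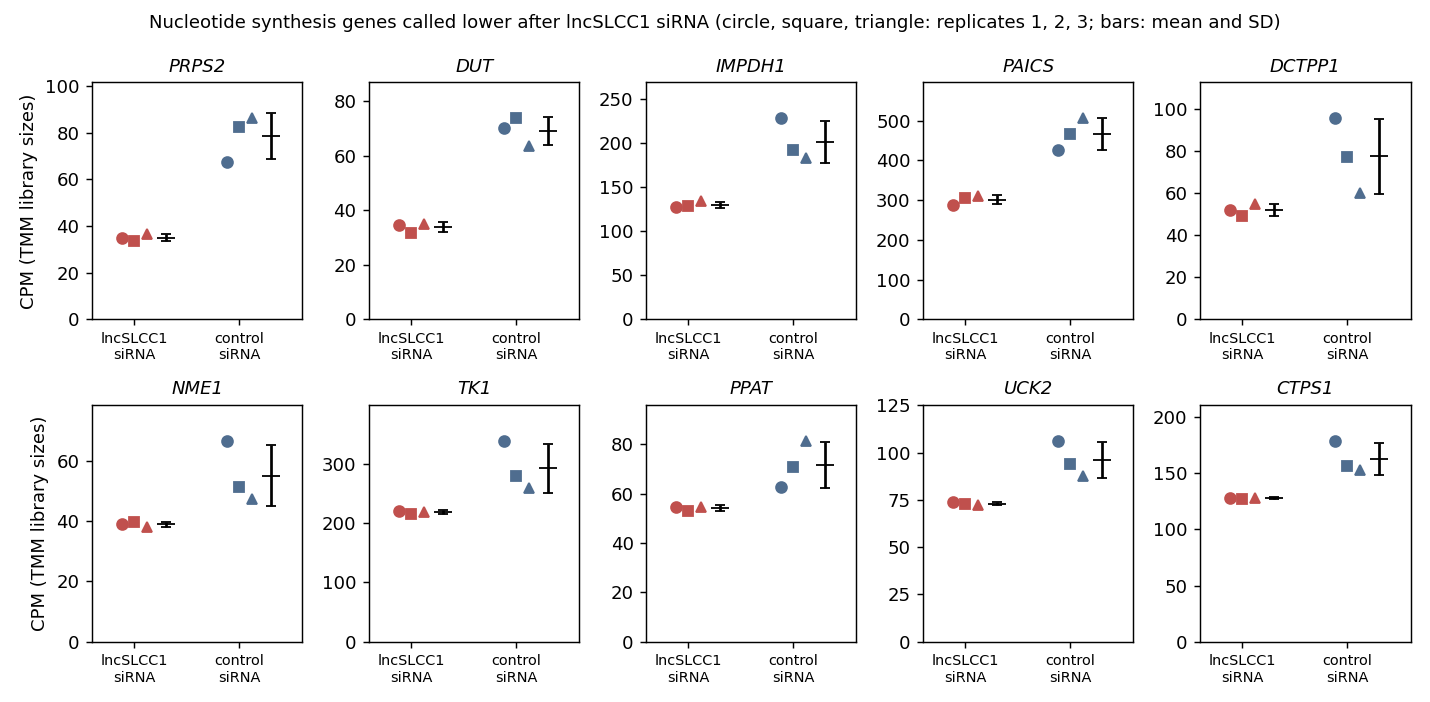
CPM in each library (points) of the 10 genes that passed the test, with lncSLCC1 siRNA left and control siRNA right in each panel and the mean with its SD beside the points. The 3 lncSLCC1 siRNA points lie below the 3 control points in every panel, and the control points are spread more widely, as for DCTPP1 (49.2 to 54.9 CPM after lncSLCC1 siRNA and 59.9 to 95.4 CPM after control siRNA).

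Genes for related enzymes of the same step were compared with each other within libraries. A ratio of reads within a library does not depend on the scaling between libraries, and 6 such ratios were compared with a two-sided exact permutation test, for which 0.1 is the smallest p that 3 against 3 libraries allow. PRPS2 had 1.21, 1.07 and 1.36 reads per PRPS1 read after lncSLCC1 siRNA and 1.98, 2.94 and 2.43 after control siRNA. IMPDH1 had 0.332, 0.353 and 0.340 reads per IMPDH2 read after lncSLCC1 siRNA and 0.479, 0.523 and 0.509 after control siRNA. CTPS1 had 4.12, 4.44 and 4.53 reads per CTPS2 read after lncSLCC1 siRNA and 7.20, 6.62 and 6.01 after control siRNA. For all 3 ratios the lncSLCC1 siRNA libraries lay below the controls without overlap, with log2 differences of -1.003, -0.56 and -0.60.

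The ratios of the small reductase subunits and of the synthetase-associated proteins lay above the controls. RRM2B had 0.0723, 0.0791 and 0.0747 reads per RRM2 read after lncSLCC1 siRNA, and 0.0263, 0.0485 and 0.0536 after control siRNA (log2 difference 0.88, and 0.56 without control replicate 1). PRPSAP1 had 0.811, 0.835 and 0.792 reads per PRPSAP2 read after lncSLCC1 siRNA and 0.702, 0.696 and 0.613 after control siRNA (log2 difference 0.28). The groups did not overlap in these 5 ratios, each with an exact permutation p of 0.1 (0.12 after Benjamini-Hochberg adjustment over the 6 pairs), so none could pass. RRM1 had 0.718, 0.729 and 0.713 reads per RRM2 read after lncSLCC1 siRNA, within the 0.767, 0.673 and 0.706 after control siRNA (log2 difference 0.01, exact permutation p = 0.8). A ratio of NME1 to NME2 could not be had because NME2 was listed at 0. In the 5 pairs other than RRM1 and RRM2, which were not aligned, coding sequences were 68.8% to 76.7% identical. The longest identical run, searched over whole transcripts, was 23 bases, in PRPS2 and PRPS1.

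**Figure D4:**
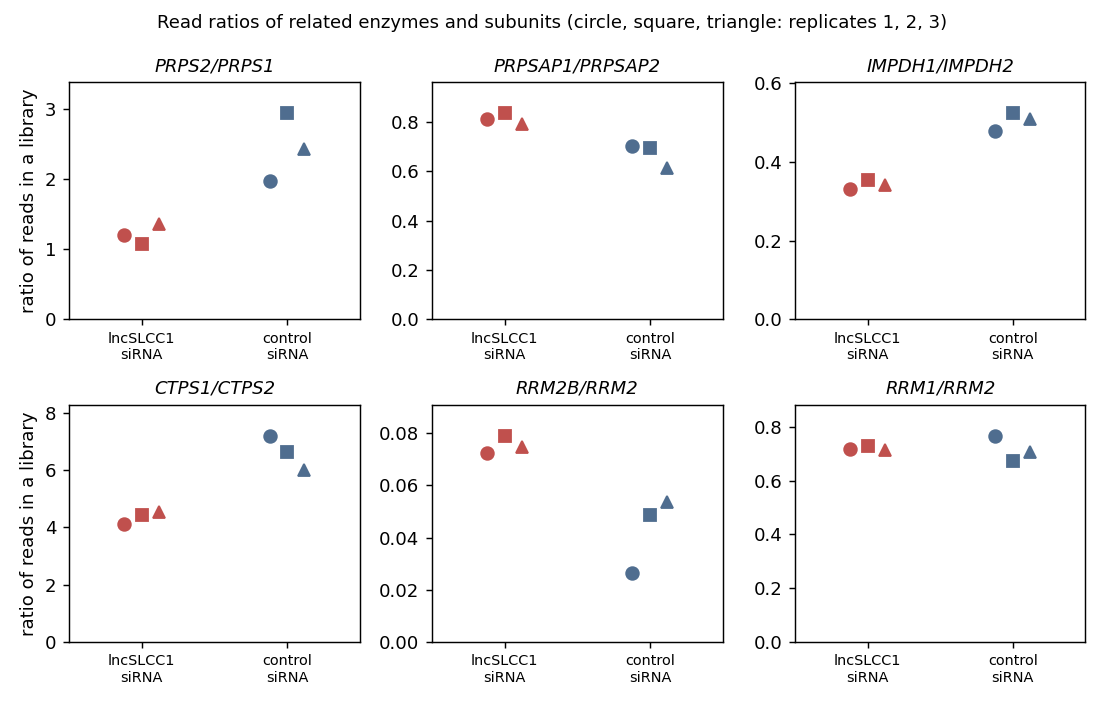
Ratio of the reads of 2 related genes within each library (y axis, from 0), with lncSLCC1 siRNA left and control siRNA right in each panel. PRPS2/PRPS1, IMPDH1/IMPDH2 and CTPS1/CTPS2 lay below all controls in each lncSLCC1 siRNA library, PRPSAP1/PRPSAP2 and RRM2B/RRM2 lay above them, and RRM1/RRM2 overlapped.

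The CPM were also summed over the genes of each role. These sums are descriptions with no test, genes with many reads dominate them, and the order of the roles changes with the library left out. PRPP synthesis summed to 139.6 ± 1.44 CPM after lncSLCC1 siRNA and 193.9 ± 3.72 CPM after control siRNA (SD, n = 3 each), or 72.0%. Salvage summed to 456.7 ± 10.7 CPM after lncSLCC1 siRNA and 597.1 ± 77.1 CPM after control siRNA, or 76.5%, and the log2 difference of -0.39 in the salvage sum was -0.29 without control replicate 1 and -0.47 without control replicate 3. The kinases and pool-cleaning genes, with NME2 entered as 0, stood at 80.6% of the control level, and ring building to IMP at 81.0%. The steps from IMP to AMP and GMP stood at 88.0%, pyrimidine synthesis at 88.2% and deoxynucleotide synthesis at 90.3%. The deoxynucleotide sum was 866.5 ± 11.4 CPM after lncSLCC1 siRNA and 959.3 ± 40.1 CPM after control siRNA, and most of it was RRM1 and RRM2.

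Levels between genes can be set side by side per kilobase of the longest GENCODE 29 transcript (RPKM, computed from the counts). IMPDH2 was the highest of the list, with 232 RPKM after lncSLCC1 siRNA and 244 RPKM after control siRNA, followed by GUK1 with 148 RPKM after lncSLCC1 siRNA and 188 RPKM after control siRNA. DHODH and RRM2B had the lowest levels of the 33. DHODH had 4.26 RPKM after lncSLCC1 siRNA and 5.58 RPKM after control siRNA. RRM2B had 6.64 RPKM after lncSLCC1 siRNA and 4.20 RPKM after control siRNA. PRPS2 had 13.9 RPKM after lncSLCC1 siRNA and 31.3 RPKM after control siRNA. PRPS1 had 13.5 RPKM after lncSLCC1 siRNA and 15.1 RPKM after control siRNA. On this scale PRPS2 was above PRPS1 in the control group and close to it after lncSLCC1 siRNA. IMPDH1 had 45.2 RPKM after lncSLCC1 siRNA and 69.9 RPKM after control siRNA, below IMPDH2 in both.

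Promoter words were counted on both strands in the RefSeq windows of 250 bases before to 50 bases after each start, as a description. Of the 34 genes, 31 had such a window. CACGTG was in the windows of 6 of the 31 genes (19.4%), PPAT, PAICS, ATIC, DHODH, NME1 and DCTPP1, against 8.77% of 27305 genes with a window. Of these 6, PPAT, PAICS, NME1 and DCTPP1 were among the 10 lower genes, and PPAT and PAICS share the same copy of the word. By the GENCODE 29 starts, the words of PAICS, ATIC, NME1 and DCTPP1 lie inside the gene. The share of lower calls among all genes with CACGTG was not computed, and a link between the word and the calls was not tested. TTTCCCGC was in 3 of 31 (9.68%, against 1.98% of all), PRPS2, TYMS and DUT, and TTTGGCGC in 2 of 31 (6.45%, against 0.795%), GART and DUT. The word CCAAT, bound by NF-Y, was in 11 of 31 (35.5%), against 39.7% of all. Genes can have more than 1 window, with 52 windows for the 31 genes and 35116 for the 27305, which were not limited to tested genes. By window the shares were 11.5% against 7.26% for CACGTG and 5.77% against 1.63% for TTTCCCGC. They were 3.85% against 0.652% for TTTGGCGC and 28.8% against 34.6% for CCAAT. The 3 genes with TTTCCCGC had log2 fold changes of -1.17 for PRPS2, 0.04 for TYMS, which did not pass, and -1.03 for DUT.

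The word CCTTCT was looked for in the longest annotated 3' UTR because an earlier analysis of these data had found it more often among lower genes, so its count is no independent result. It was in 8 of the 10 lower nucleotide genes (80%, median 3' UTR length 1368 bases) and in 8 of the 23 that did not pass (34.8%, median 994 bases). Among all tested genes with a 3' UTR it was in 61.2% of the lower, 49.6% of the higher and 44.3% of those that did not pass. PPAT and DCTPP1 were the lower genes without it. The sites of the 4 genes that kept their calls under every alternative are shown with the word in capitals, read on the strand of the gene from GENCODE 29 on GRCh38. They lie at chrX:12822935-12822958 and chrX:12823175-12823198 for PRPS2, at chr15:48342183-48342206 and chr15:48342571-48342594 for DUT, at chr4:56461127-56461150 and chr4:56464275-56464298 for PAICS, all on the plus strand, and at chr7:128392374-128392397 on the minus strand for IMPDH1. A match is a description of sequence.
PRPS2: attgtttccCCTTCTaaagctcaa
PRPS2, farther from the stop: agattaaagCCTTCTgtgtaaata
DUT: ctagctttaCCTTCTaaaagtact
DUT, farther from the stop: ttgttcttcCCTTCTcttcactag
PAICS: tccatgaaaCCTTCTgtaaccaca
PAICS, farther from the stop: caaaattaaCCTTCTgctctcaat
IMPDH1: ccattcctcCCTTCTcctcagctg

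Genes that feed or follow these routes were described from other lists by counts, beside the 7.39% lower and 6.46% higher of all genes. Of 27 tested genes of further salvage and interconversion, 6 were lower and 0 higher (median log2 fold change -0.15). PNP, which encodes the phosphorylase that splits purine nucleosides, stood at 53.3, 53.0 and 51.0 CPM after lncSLCC1 siRNA and 114.4, 90.0 and 86.3 CPM after control siRNA (log2 fold change -0.89, SE 0.114, edgeR adjusted p = 0.00166). Without control replicate 1, its highest library, the PNP log2 fold change was -0.75. ADA, which encodes adenosine deaminase, the step before it, was lower by -0.86 on the log2 scale (adjusted p = 0.00738, and 0.0558 without lncSLCC1 siRNA replicate 2). The adenylate kinase gene AK4 was lower at -0.52 (edgeR adjusted p = 0.0275) and the nucleoside diphosphate kinase gene NME4 at -0.48 (0.0221). AK4 and NME4 lost their calls without control replicate 2 (adjusted p 0.105 and 0.0807) or with any lncSLCC1 siRNA replicate left out (0.0872 to 0.127).

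Of 18 breakdown genes, 1 was lower and 1 higher (median log2 fold change 0.08), a share near that of all genes. With the GC content and length correction 6 were called in either direction, where 13.9% of all genes were higher and 15.8% lower. Without control replicate 3 it was 7, where 10.3% of all genes were higher and 13.4% lower. ENTPD7, which encodes an intracellular nucleoside triphosphatase, was lower at -1.47 (SE 0.195, edgeR adjusted p = 0.00203), and its relative ENTPD4 was higher at 0.28 (adjusted p = 0.036). The ENTPD4 call did not hold without control replicate 2 (0.121) or after leaving out lncSLCC1 siRNA replicate 1, 2 or 3 (adjusted p of 0.159, 0.165 and 0.14). In nucleoside and nucleotide transport 3 of 8 were lower and 0 higher (median -0.24). SLC29A2, which encodes an equilibrative nucleoside transporter, was lower at -0.63 (SE 0.0948, edgeR adjusted p = 0.00369), and the mitochondrial carrier gene SLC25A33 at -0.47 (adjusted p = 0.0282). The SLC25A33 call was lost without control replicate 2 (0.0979) or with any lncSLCC1 siRNA replicate left out (0.0979 to 0.13).

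The supply routes were mixed. In folate and one-carbon metabolism 3 of 16 were lower and 1 higher (median log2 fold change -0.07). SHMT2, which encodes the mitochondrial enzyme that takes a carbon unit from serine, was lower at -0.78 (SE 0.0900, edgeR adjusted p = 0.000876), and SLC19A1, which encodes the reduced folate carrier, at -0.87 (SE 0.124, adjusted p = 0.00271). Without control replicate 1 the values were -0.70 for SHMT2 and -0.73 for SLC19A1. In the pentose phosphate pathway, the source of ribose phosphate, 3 of 9 were lower and 0 higher (median -0.24), among them the ribose phosphate isomerase gene RPIA at -0.40 (edgeR adjusted p = 0.0338). The RPIA call was lost without control replicate 2 (0.112) or with any lncSLCC1 siRNA replicate left out (0.1 to 0.154). In glutamine and aspartate supply 2 of 12 were lower and 0 higher (median -0.04), the asparagine synthetase gene ASNS at -0.52 (edgeR adjusted p = 0.00481) and the aspartate and glutamate transporter gene SLC1A3 at -0.37 (0.0415). The SLC1A3 call was lost whenever a single library other than control replicate 1 was left out (adjusted p 0.0544 to 0.162).

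All calls among regulators and S phase genes were lower after lncSLCC1 siRNA. Of 16 regulators of nucleotide genes, 4 were lower and 0 higher (median log2 fold change -0.21). MYC stood at 170.6, 156.6 and 157.7 CPM after lncSLCC1 siRNA and 257.9, 244.4 and 221.0 CPM after control siRNA, with no overlap (log2 fold change -0.58, SE 0.0837, edgeR adjusted p = 0.00306). E2F1 and E2F3, transcription factor genes of S phase entry, were lower at -0.41 (adjusted p = 0.0333) and -0.38 (0.0207), and NRF1 at -0.38 (0.0415). These 3 genes lost their calls without control replicate 2 (0.104, 0.089 and 0.152) or with any lncSLCC1 siRNA replicate left out (0.0998 to 0.168). Of 38 S phase genes, 16 were lower and 0 higher, or 42.1% (median -0.26), among them the replication factor gene RFC5 at -0.57, UHRF1 at -0.48 and CDC45 at -0.62, with adjusted p of 0.00392 to 0.00557 by edgeR. The summed S phase level was 4361 to 4398 CPM after lncSLCC1 siRNA and 5114 to 5593 CPM after control siRNA, and the groups did not overlap. The part of S phase genes in the change of the nucleotide genes was not tested.

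**Figure D5:**
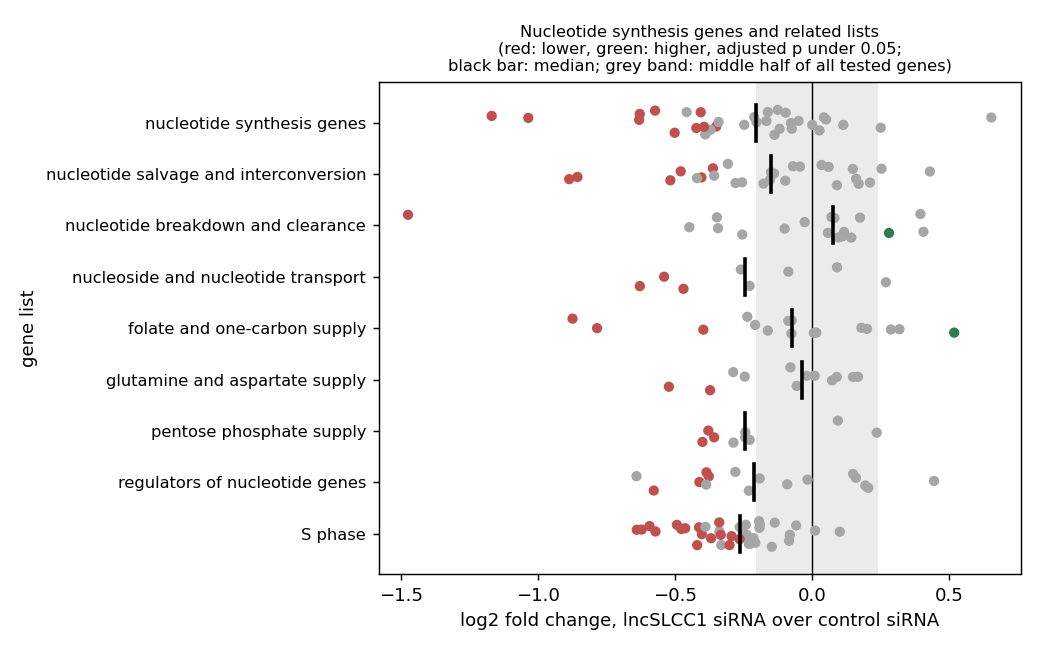
Log2 fold change of lncSLCC1 siRNA over control siRNA (x axis) for each tested gene of the nucleotide synthesis list and of the 8 other lists (rows), with the median as a black bar and the middle 50% of all tested genes as a grey band. Red points were lower and green points higher at an adjusted p under 0.05 by edgeR: 10 and 0 of the 33 nucleotide synthesis genes, 16 and 0 of the 38 S phase genes, and 1 and 1 of the 18 breakdown genes.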

How the data were processed

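RNA-seq of 6 DLD-1 libraries was used, 3 after lncSLCC1 siRNA and 3 after control siRNA, grouped by the sample labels. The authors deposited raw read counts per gene symbol, 1 table per library. TopHat2 2.0.11, TopHat, HTSeq and the builds hg19 and GRCh37 are named in the submitters' processing notes, and for the strand setting and annotation release the sources used here give nothing. HTSeq's summary lines entered neither library sizes nor tests. Per library 5.42% to 7.58% of reads and alignments had no feature, 8.83% to 10.1% were ambiguous and 12.8% to 13.8% were not unique.

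Groups were compared by the quasi-likelihood test of edgeR 4.0.16 in R 4.3.3, with TMM library sizes and the default expression filter, with Benjamini-Hochberg adjustment over all 15242 tested genes and calls at an adjusted p under 0.05. The biological coefficient of variation was 10.9%. The fit was tested on simulated counts. CPM used the same TMM library sizes. Transcript length, GC content and 3' UTRs came from GENCODE 29 on GRCh38 by symbol (89.4% of tested genes), and promoter windows from RefSeq on GRCh38.p14, which held none for ADSL, IMPDH2 and RRM2B under the names used.

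The alternatives tried were library totals, DESeq2 size factors, other filters, DESeq2 1.42.0, limma-voom (limma 3.58.1), the replicate number as a block, GC content and length offsets, a threshold of 0.01, and each library left out. Each gene of the list is accounted for; from each other list up to 5 genes with the smallest p were named, except a few that are counted but not reported here by name. The genes, lists and words were chosen with earlier results of these data known.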

Additional observations from a re-analysis of the deposited data

How the results depend on the processing

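PRPS2, DUT, PAICS and IMPDH1 kept their calls under all 16 alternatives, with log2 fold changes from -1.27 to -1.10, -1.10 to -0.96, -0.75 to -0.56 and -0.70 to -0.53. Over the same alternatives the log2 fold change ran from -0.73 to -0.40 for DCTPP1 and from -0.60 to -0.34 for NME1. The range was -0.58 to -0.31 for PPAT, -0.50 to -0.28 for TK1, -0.46 to -0.31 for UCK2 and -0.40 to -0.28 for CTPS1. The median log2 fold change of the 33 genes ran from -0.22 to -0.13 over the alternatives. Over all genes, 1600 were higher and 1672 lower with no low-count filter, against 984 higher and 1126 lower with the filter. With GC content and length offsets 2121 were higher and 2405 lower, and at an adjusted p under 0.01 there were 251 higher and 327 lower. With library totals 63.9% of calls were higher (1442 higher, 814 lower) and all genes had a median of 0.0765 on the log2 scale, against 46.6% and 0.0072 with TMM. Of the nucleotide genes 21 were lower with the offsets and 4 at 0.01, and RRM2B was the 1 called higher with no filter, by DESeq2 and with the offsets. Leaving out 1 library gave 213 to 2112 genes higher and 244 to 2431 lower, with 4 to 19 nucleotide genes lower and 0 to 2 higher.

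List counts here take higher and lower calls together. The main fit tested 27 genes for salvage, 18 for breakdown, 8 for transport and 16 for folate. It tested 12 for glutamine, 9 for pentose phosphate, 16 for regulators and 38 for S phase. With the offsets 13.9% of all genes were higher and 15.8% lower. List counts were then 11 for salvage, 6 for breakdown, 5 for transport and 7 for folate. They were 5 for glutamine, 8 for pentose phosphate, 10 for regulators and 28 for S phase. At 0.01, where 1.65% of all genes were higher and 2.15% lower, they were 3 for salvage and 8 for S phase. Breakdown, transport, glutamine and regulators then had 1 each. Pentose phosphate had 0 (3 of 9 at 0.05 and 6 of 9 at an unadjusted p under 0.05). With no filter (5.33% of all genes higher and 5.57% lower) the counts were 5 for breakdown, 4 for glutamine and 6 for pentose phosphate. DESeq2 gave 4 for breakdown (6.4% of all genes higher and 8.12% lower), and library totals 1 for glutamine (9.46% and 5.34%). Leaving out 1 library gave 1 to 10 for salvage, 1 to 7 for breakdown, 1 to 4 for transport and 2 to 6 for folate. It gave 1 to 6 for glutamine, 0 to 7 for pentose phosphate, 1 to 9 for regulators and 3 to 29 for S phase. Of all genes, 1.37% to 13.5% were then higher and 1.56% to 15.5% lower. The role sums were -0.40 for PRPP synthesis, -0.23 for ring building, -0.11 for pyrimidines and -0.079 for deoxynucleotides on the log2 scale with library totals, against -0.47, -0.30, -0.18 and -0.15. The RRM1 to RRM2 ratio ran from -0.032 to 0.0613 with 1 library left out. Signs turned in genes that did not pass: PRPSAP1 to -0.0675 without control replicate 3, GMPS to 0.0173 with library totals and 0.0391 without control replicate 3, IMPDH2 to 0.0382 with the offsets and 0.0631 without control replicate 1, ADSS to -0.0042 with no filter, -0.0499 with the offsets, -0.1918 without control replicate 1 and -0.0142 after leaving out lncSLCC1 siRNA replicate 2, and TYMS, CMPK1 and HPRT1 to -0.0115, -0.156 and -0.0823 without control replicate 1 (HPRT1 also to -0.006 with lncSLCC1 siRNA replicate 2 left out). The highest values with 1 library left out were 0.1394 for PRPSAP1, 0.1177 for ADSS, 0.1263 for TYMS, 0.3108 for CMPK1 and 0.1452 for HPRT1. The cause of these changes was not tested.

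The labels number the libraries of both groups 1 to 3 and do not say whether same-numbered libraries were paired. Deviations from the group means correlated at 0.094, 0.001 and -0.016 between same-numbered libraries. Between differently numbered libraries they correlated at -0.085 to 0.102. With 3 libraries per group these values cannot settle the pairing. With the replicate block 993 genes were higher and 1059 lower (6.51% and 6.95% of all genes). Of the nucleotide genes 12 were lower and 1 higher, and the glutamine list had 1 call. With the block and the offsets together, 1852 genes were higher and 2170 lower (12.2% and 14.2% of all genes). In that fit 20 nucleotide genes were lower and 1 higher, and IMPDH2 stood at 0.0394 and ADSS at -0.0358. The lists then had 10 calls for salvage, 6 for breakdown, 5 for glutamine, 7 for pentose phosphate, 8 for regulators and 27 for S phase. Depth limits the genes with few reads: the fewest reads of a tested nucleotide gene in a library were 164, for RRM2B.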
